A study of Mus musculus with 12 samples.

Results

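Lysosome and autophagy genes were examined in the livers of CCR1 knockout and wild-type (WT) mice. The set holds 37 genes, found as the rows of the deposited table of 27912 genes whose symbol equals a name on a fixed list: 17 hydrolases, 2 soluble cofactors, 5 membrane proteins, 5 subunits of the proton pump, 3 transcription factors of the MiT/TFE family and 5 autophagy genes. All 37 had 1 row each and passed the filter on low counts. CCR1 is a receptor for inflammatory chemokines carried mainly by leukocytes. Male C57BL/6 WT mice and mice with a CCR1 knockout (CCR1-KO) were 8 weeks old at the start and spent 12 weeks on the CL diet, which is high in fat and cholesterol and contains cholate. Polyadenylated RNA of whole liver was sequenced in 3 WT libraries (replicates 62, 63 and 64) and 3 CCR1-KO libraries (replicates 65, 66 and 67). The series describes 12 samples in 4 groups; the other 6, of a WT group and of a group labelled CCR1-LKO, were not analysed here, nor were livers from mice on chow. The sources used here do not give the deleted part of Ccr1, the litters or the backcrossing of the knockout line, so genotype and genetic background cannot be told apart.

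The lysosome is the acidic compartment in which cells break down proteins, glycans and lipids delivered by endocytosis and by autophagy. Its soluble hydrolases work inside a membrane guarded by glycosylated proteins such as LAMP1 and LAMP2, and a vacuolar proton pump (V-ATPase) keeps the interior acidic. The transcription factors TFEB, TFE3 and MITF bind E-box sites near many lysosomal genes, and the kinase complex mTORC1, named in the title of the series, holds them in the cytoplasm when nutrients are plentiful. Hepatocytes and macrophages of the liver both carry many lysosomes, and lysosomal acid lipase (Lipa) frees cholesterol from the esters that cells take up.

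The libraries held 74699391 to 79154085 gene reads each. Levels are CPM, read counts scaled to a common library size with TMM factors, on which 1 read was worth 0.0113 to 0.0167. The targeted transcript Ccr1 had 100, 23 and 123 reads in WT and 11, 4 and 14 in CCR1-KO livers (log2 ratio -2.72 ± 0.76, adjusted p = 0.075), so it was lower in each knockout library but missed the threshold of 0.05. Adjusted p-values are from edgeR's quasi-likelihood test on the counts with Benjamini-Hochberg adjustment over 17729 genes, and log2 ratios are CCR1-KO over WT ± their standard error (SE). Of all genes tested, 640 (3.61%) were called lower and 501 (2.83%) higher in CCR1-KO. The labels number the libraries singly and do not state whether each came from a separate mouse, so p-values measure the spread between these samples, which may be technical. Cells and RNA per cell are not separated in bulk liver: fewer cells of a type and less RNA per cell cannot be told apart.

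Of the lysosome and autophagy genes, those that fell in CCR1-KO livers were nearly all hydrolases. Of the 17 hydrolases, 7 fell (Hexa, Lipa, Lgmn, Ppt1, Ctsd, Gusb and Ctsa), 0 rose and 10 did not pass, beside 3.61% of all genes called lower. Of the 20 other members, 1 fell, the proton pump subunit Atp6v1a, and 0 rose. The median log2 ratio was -0.54 over the hydrolases, 0.20 over the membrane proteins, -0.30 over the proton pump, 0.19 over the MiT/TFE factors and 0.14 over the autophagy genes, against 0.00 over all genes tested. Over the 2 soluble cofactors the median was -0.26. All 3 CCR1-KO values were under the lowest WT value for 11 of the 17 hydrolases (64.7%) and for 3 of the 20 other members (15%), against 17.4% of all genes tested. The reverse order was seen for 1 hydrolase and 2 other members, against 15.2% of all genes. Directions here are relative to TMM scaling. With no scaling factors the median was -0.30 over all genes, -0.82 over the hydrolases and -0.20 over the other members, and 12 of the uncalled members turned from above to below 0, among them Lamp2, Npc1, Mcoln1, Tfeb, Tfe3, Mitf, Becn1 and Ctsh. The difference between roles was not tested as such.

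The number of calls moved with the libraries used. The 8 called genes kept their direction in all 6 fits that left out 1 library, but they passed the threshold only without CCR1-KO replicate 65, when 12 members and 7.67% of all genes were lower. In the 5 other fits 0 members passed. The share of all genes called lower was then 0.655%, 0.361% and 0.579% without WT replicates 62, 63 and 64, and 0.996% and 1.19% without CCR1-KO replicates 66 and 67. No member was called higher in any of these 6 fits, where 0.447%, 0.197%, 0.312%, 5.5%, 0.796% and 0.947% of all genes were, in the order of the replicates left out. With other settings on all libraries, members lower were 7 with median-ratio scaling (3.45% of all genes), 7 with no scaling factors (4.83%), 12 with DESeq2 (7.4%), 4 with no filter on low counts (1.51%; Hexa, Lipa, Lgmn and Atp6v1a), and 11 and 10 with limma on FPKM at pseudocounts of 0.5 and 0.1 (8.7% and 7.75%). Members higher were 0 in each of these settings, beside 2.94%, 1.24%, 5.74%, 1.12%, 1.78% and 1.74% of all genes in the same order.

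**Figure D1:**
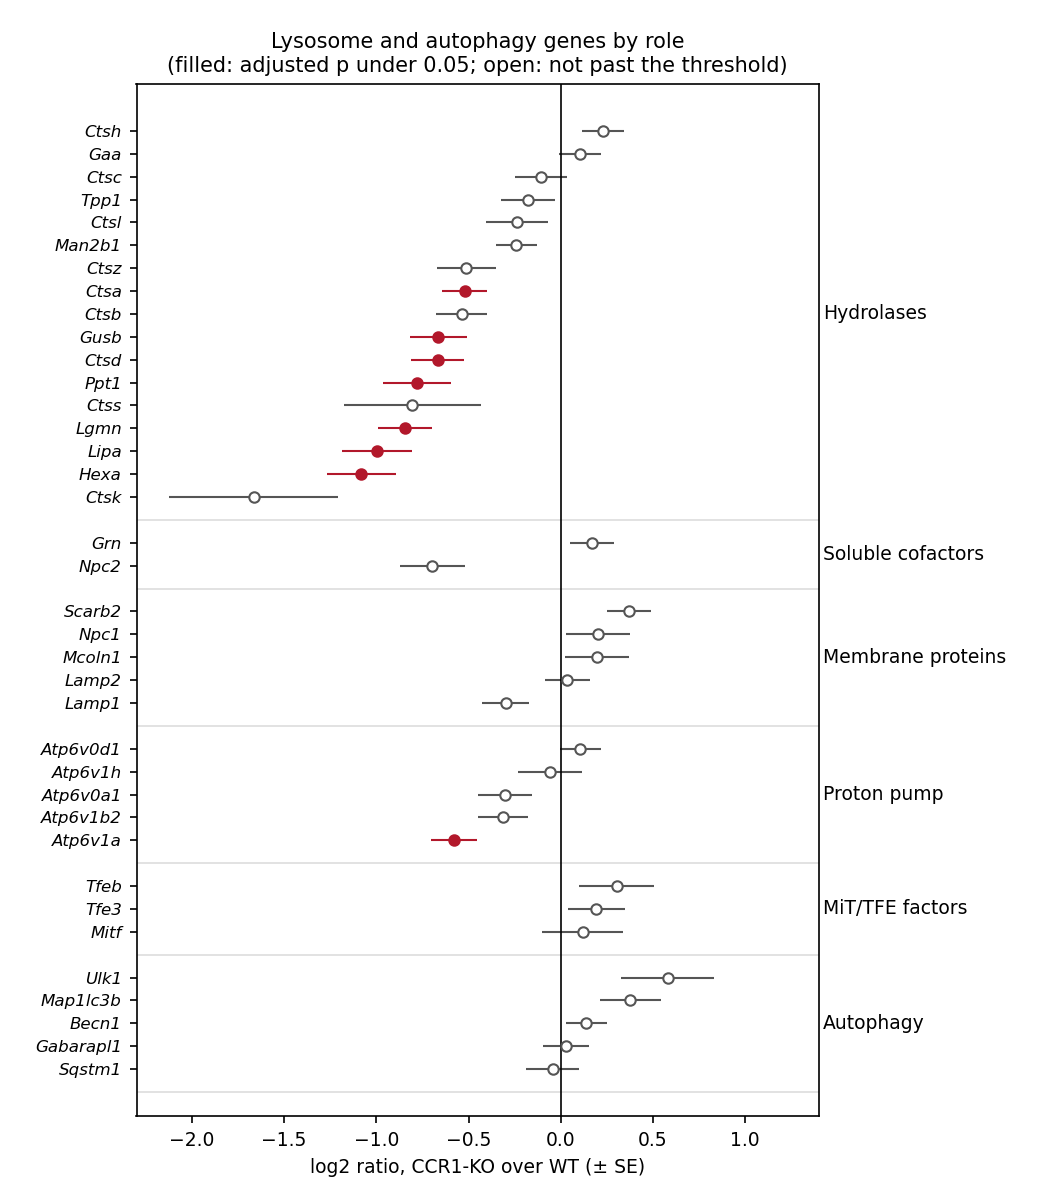
Log2 ratio of CCR1-KO over WT (horizontal axis, point ± SE) for the 37 members, grouped by role. Filled points passed an adjusted p of 0.05: 7 of 17 hydrolases and 1 of 5 proton pump subunits lie to the left, and the open points of the MiT/TFE factors all lie between 0.12 and 0.30.

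The stretches of DNA before the gene starts are shown because several members share the E-box that MiT/TFE factors bind, whether or not their transcripts differed. RefSeq start windows (250 bases before to 50 after each start, GRCm38.p6) were found by symbol for 31 of the 37 members. The core CACGTG, which reads the same on both strands, was in the windows of 9 of these 31 (29.0%), against 8.09% of 27025 genes in the RefSeq table. Its extension TCACGTGA, which contains the core and is also the same on both strands, was in 5 of 31 (16.1%), against 1.12% of all genes. The related M-box TCATGTG, searched on both strands and neither part of the core nor holding it, was in 6 of 31 (19.4%), against 4.31%. A match is a description of the letters and does not show binding. Stretches are read 5′ to 3′ on the strand of the gene, with CACGTG or TCACGTGA in capitals. For 5 members, 30 bases around the site are shown, since more of the region before the RefSeq start is untranslated exon of another GENCODE transcript: Ctsd (chr7:142387908-142387937, minus strand), Ctsa at the later of its 2 RefSeq starts (chr2:164833743-164833772, plus strand), Atp6v1a (chr16:44139373-44139402, minus strand), Mcoln1 (chr8:3500462-3500491, plus strand) and Gaa (chr11:119267813-119267842, plus strand). For 4 members the 150 bases just before the start are shown: Lgmn at 1 of its 2 RefSeq starts (chr12:102439093-102439242, minus strand), Lamp1 (chr8:13159011-13159160, plus strand), Hexa (chr9:59539390-59539539, plus strand) and Lipa (chr19:34527475-34527624, minus strand). For Ctsa and Lgmn, with 2 starts each, the start with more copies of the core before it was chosen.
Ctsd: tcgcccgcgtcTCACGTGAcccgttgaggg
Ctsa: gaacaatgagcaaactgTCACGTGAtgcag
Atp6v1a: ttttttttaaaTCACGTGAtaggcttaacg
Mcoln1: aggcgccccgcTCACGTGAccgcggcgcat
Gaa: tctgtgcgatCACGTGtttgactctgactc
Lgmn: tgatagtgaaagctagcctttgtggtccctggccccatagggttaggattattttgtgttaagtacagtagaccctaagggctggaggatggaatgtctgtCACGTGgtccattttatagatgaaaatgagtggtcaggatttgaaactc
Lamp1: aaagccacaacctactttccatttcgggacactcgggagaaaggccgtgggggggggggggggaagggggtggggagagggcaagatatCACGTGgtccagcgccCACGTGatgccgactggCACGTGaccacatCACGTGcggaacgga
Hexa: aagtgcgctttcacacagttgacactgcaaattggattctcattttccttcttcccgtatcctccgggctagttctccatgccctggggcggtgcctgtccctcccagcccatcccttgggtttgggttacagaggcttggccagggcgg
Lipa: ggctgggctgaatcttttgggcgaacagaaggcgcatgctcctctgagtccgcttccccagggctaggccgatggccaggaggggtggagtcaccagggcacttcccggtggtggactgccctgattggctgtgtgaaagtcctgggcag

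The E-box stood before genes that fell and before genes that did not pass. The extension stood 99 bases before the start of Ctsd and 132 before that of Atp6v1a, both lower in CCR1-KO. Ctsa, also lower, had it 13 bases before its later start and again from base 5 after it. It also stood 46 bases before the start of Mcoln1 and 4 before that of Atp6v0d1, 2 genes that did not pass. Lamp1 had 4 copies of the core between 61 and 15 bases before its start and was not called. Hexa and Lipa, the called members with the log2 ratios farthest from 0, had none of the 3 motifs in their windows, which says only that these letters are not there. In all, the core was in the windows of 4 of 8 called members (Ctsd, Ctsa, Lgmn, Atp6v1a) and 5 of 23 others (Ctsl, Gaa, Lamp1, Mcoln1, Atp6v0d1). The extension was in 3 of 8 called members (Ctsd, Ctsa, Atp6v1a) and 2 of 23 others (Mcoln1, Atp6v0d1). Differences between called and other members were not tested.

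**Figure D2:**
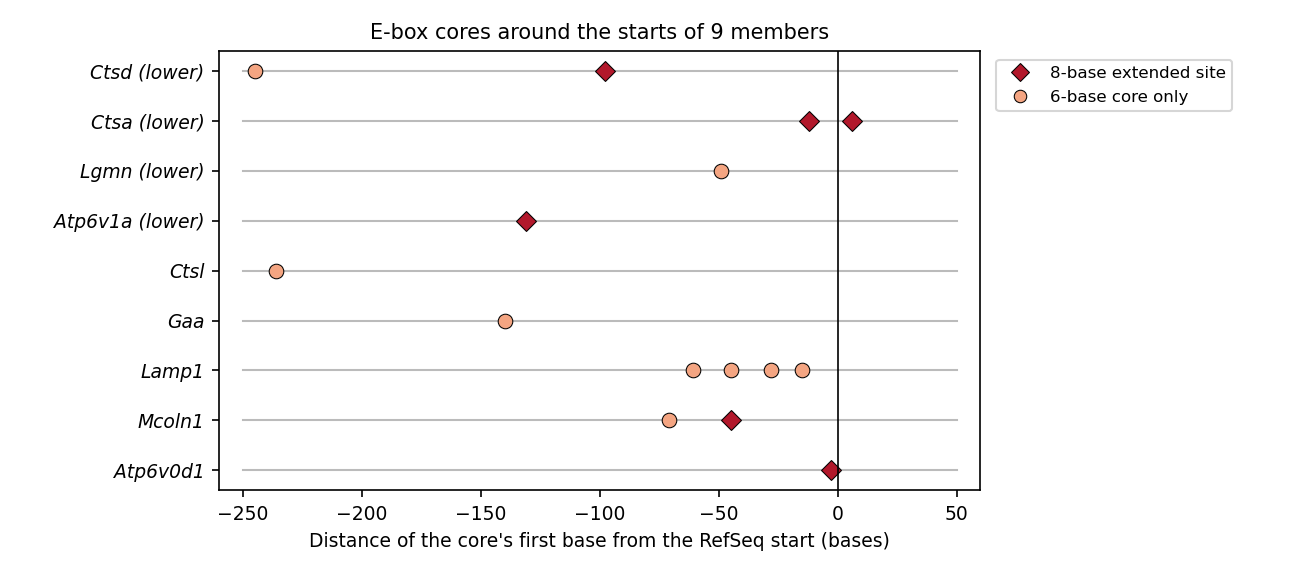
Position of each E-box core (horizontal axis, bases from the RefSeq start to the first base of the core) in the 9 members that hold it, drawn over the searched window. Diamonds are cores within the 8-base extension, circles are cores alone, and the genes marked lower passed the threshold in CCR1-KO. The 4 cores of Lamp1 lie within 61 bases of its start.

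Of the 4 glycan-degrading enzymes, 2 fell. Hexa encodes the alpha subunit of beta-hexosaminidase, which trims gangliosides (ENSMUSG00000025232, chr9:59539540-59565109). It had 91.8, 109 and 106 CPM in WT and 62.6, 42.7 and 40.0 CPM in CCR1-KO livers (replicates in the order 62, 63, 64 and 65, 66, 67 here and below). On average CCR1-KO livers held 47.3% of the WT level (log2 ratio -1.08 ± 0.19, adjusted p = 0.021). The groups did not overlap, and CCR1-KO replicate 65 was the highest of its group. Gusb encodes beta-glucuronidase, an enzyme of glycosaminoglycan breakdown (ENSMUSG00000025534, chr5:129989011-130003049). It had 31.5, 41.4 and 39.4 CPM in WT and 27.3, 22.9 and 20.8 CPM in CCR1-KO livers, with a narrow gap between WT replicate 62 and CCR1-KO replicate 65 (log2 ratio -0.66 ± 0.15, adjusted p = 0.046). The Gusb call was lost with no scaling factors (adjusted p = 0.055) and with no filter on low counts (adjusted p = 0.069). The other 2 glycosidases did not pass. Man2b1, lysosomal alpha-mannosidase, was at 95.8 ± 5.00 CPM in CCR1-KO against 113 ± 5.48 CPM in WT (mean ± SD, n = 3, here and below; log2 ratio -0.24 ± 0.11, adjusted p = 0.22), and the glycogen-degrading Gaa at 81.2 ± 6.33 CPM in CCR1-KO against 75.4 ± 4.33 CPM in WT (log2 ratio 0.11 ± 0.12, adjusted p = 0.62).

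Both lipid hydrolases were lower. Lipa, lysosomal acid lipase, splits cholesteryl esters and triglycerides (ENSMUSG00000024781, chr19:34492318-34527474). Its levels were 277, 238 and 254 CPM in WT and 162, 98.6 and 125 CPM in CCR1-KO livers, a mean in CCR1-KO at 50.1% of WT (log2 ratio -0.996 ± 0.19, adjusted p = 0.026). The highest CCR1-KO library, replicate 65, was well below the lowest WT library. Ppt1, palmitoyl-protein thioesterase, removes fatty acids from cysteines of proteins (ENSMUSG00000028657, chr4:122836242-122859078). Ppt1 had 38.8, 34.2 and 34.8 CPM in WT and 26.1, 15.7 and 20.9 CPM in CCR1-KO livers (log2 ratio -0.78 ± 0.18, adjusted p = 0.048). Its span overlaps that of Cap1 on the opposite strand, which had 65.9 CPM on average against 28.4 for Ppt1. Cap1 itself was not called (log2 ratio -0.24). The library kit marks strand, but no source used here says whether strand entered the counting.

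Of the 11 proteases, 3 fell and 8 did not pass. Lgmn encodes legumain, an asparagine-specific protease (ENSMUSG00000021190, chr12:102394084-102439813). It had 64.3, 54.1 and 57.2 CPM in WT and 38.4, 27.9 and 31.5 CPM in CCR1-KO livers (log2 ratio -0.84 ± 0.15, adjusted p = 0.021). Ctsd encodes cathepsin D, the main aspartic protease of the lysosome (ENSMUSG00000007891, chr7:142375911-142388038). Its levels were 506, 497 and 489 CPM in WT and 369, 276 and 294 CPM in CCR1-KO livers, tight in WT and lowest in CCR1-KO replicate 66 (log2 ratio -0.67 ± 0.15, adjusted p = 0.039). Per gene length Ctsd was the most abundant of the 17 hydrolases in WT, at 215 ± 6.30 FPKM. Ctsa encodes the carboxypeptidase that also shields neuraminidase and beta-galactosidase (ENSMUSG00000017760, chr2:164832873-164840019). Ctsa had 204, 208 and 179.8 CPM in WT and 149, 136 and 128 CPM in CCR1-KO livers (log2 ratio -0.52 ± 0.12, adjusted p = 0.049). Its call is the closest to the threshold, and was lost with median-ratio scaling and with no filter on low counts. Pltp, which overlaps Ctsa on the opposite strand at 32.9% of its mean level, was itself lower (log2 ratio -2.15), and its part in the Ctsa value was not tested.

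**Figure D3:**
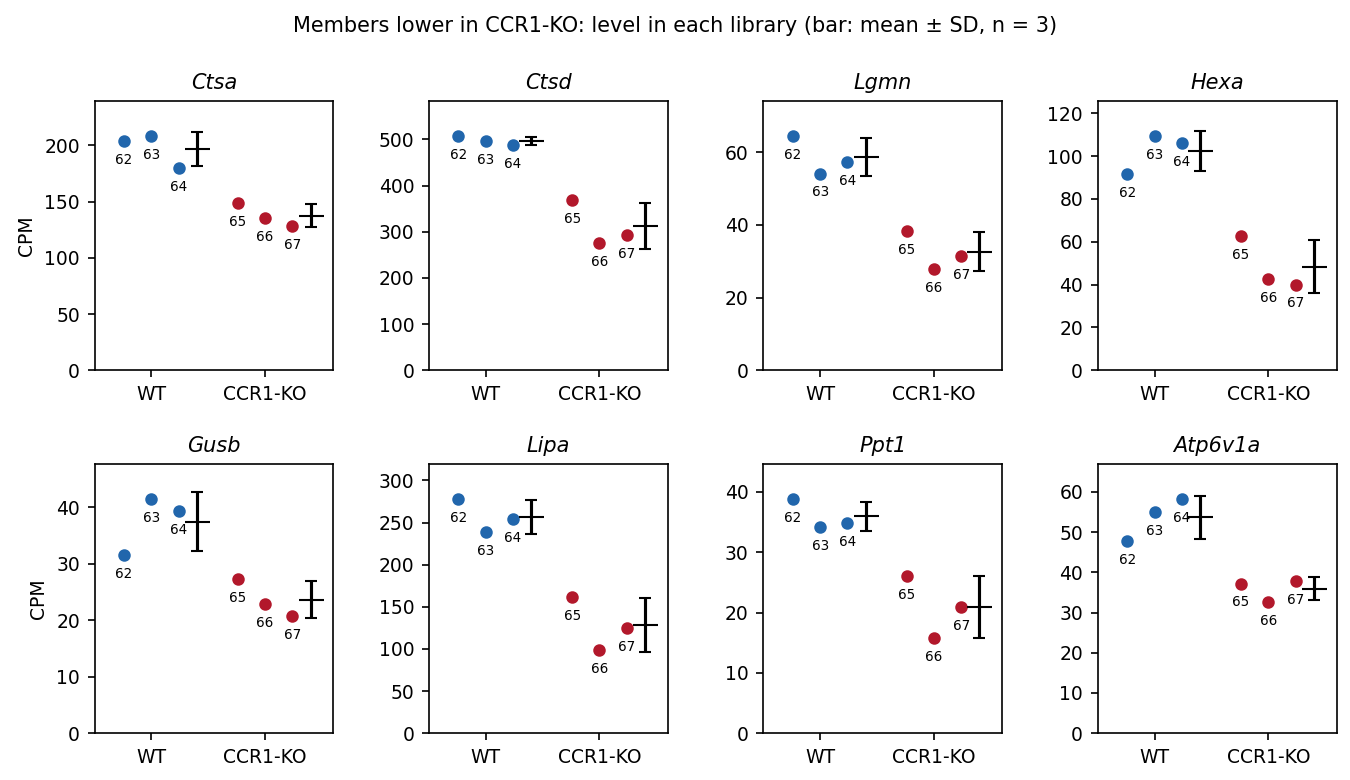
Level of each of the 8 members called lower, in CPM (vertical axes from 0), in WT (blue) and CCR1-KO (red) libraries, numbered by replicate, with mean ± SD (n = 3) beside them. The panels hold only genes that passed the test, so the lack of overlap in each panel is no further support. CCR1-KO values lay under all WT values for 17.4% of all genes tested. CCR1-KO replicate 65 is the highest of its group in 7 of the 8, against 6410 of all 17729 genes tested.

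The other cathepsins covered a wide range. Ctsk, a collagen-degrading cathepsin best known from osteoclasts, had 1.28, 2.19 and 3.83 CPM in WT and 1.04, 0.552 and 0.703 CPM in CCR1-KO livers. It was the lowest hydrolase by level, with 36 to 337 reads a library, and had the log2 ratio farthest from 0 of all members, but its WT libraries were far apart and it did not pass (log2 ratio -1.66 ± 0.46, adjusted p = 0.073). Ctss, a cathepsin of antigen-presenting cells, had 54.9, 42.2 and 57.7 CPM in WT and 50.1, 17.8 and 20.7 CPM in CCR1-KO livers. CCR1-KO replicate 65 lay among the WT libraries while replicates 66 and 67 were well below them (log2 ratio -0.80 ± 0.37, adjusted p = 0.23). Ctsz had 269, 308 and 262 CPM in WT and 224, 206 and 158 CPM in CCR1-KO livers, again without overlap, and Ctsb, the most highly counted protease of the set, 708, 707 and 767 CPM in WT and 568, 474 and 462 CPM in CCR1-KO livers. Neither passed (Ctsz adjusted p = 0.10, Ctsb adjusted p = 0.06). Ctsb overlaps Fdft1 of the opposite strand, a sterol synthesis gene at 13.6% of its level that was itself lower. Ctsl, Ctsc and the tripeptidyl peptidase Tpp1 had overlapping groups and log2 ratios of -0.24, -0.10 and -0.18. Ctsh, an aminopeptidase, stood alone among the hydrolases in that all 3 CCR1-KO values were over the highest WT value: 206, 199.5 and 189 CPM in WT and 231, 220.4 and 246 CPM in CCR1-KO livers (log2 ratio 0.23 ± 0.11, adjusted p = 0.26).

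Neither soluble cofactor passed. Npc2, which hands free cholesterol to the membrane protein NPC1, had 71.6, 88.4 and 84.0 CPM in WT and 59.9, 51.9 and 38.8 CPM in CCR1-KO livers. The groups did not overlap (log2 ratio -0.70 ± 0.18, adjusted p = 0.059). Npc2 did pass as lower with DESeq2 (adjusted p = 0.0066) and with limma at a pseudocount of 0.5 (adjusted p = 0.049). It also passed in edgeR without CCR1-KO replicate 65 (adjusted p = 0.023). Grn, the precursor of granulins, had 179, 205 and 192 CPM in WT and 204, 214 and 230.4 CPM in CCR1-KO livers (log2 ratio 0.17 ± 0.12, adjusted p = 0.42), and WT replicate 63 reached the lowest CCR1-KO library.

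No membrane protein passed the test. Lamp1, the most abundant member per gene length at 264 ± 16.2 FPKM in WT, had 686, 687 and 706 CPM in WT and 547, 525 and 617 CPM in CCR1-KO livers, a modest difference without overlap (log2 ratio -0.30 ± 0.13, adjusted p = 0.20). With limma on FPKM Lamp1 did pass as lower, at pseudocounts of 0.5 (adjusted p = 0.048) and 0.1 (adjusted p = 0.049). Lamp2, an isoform of which serves chaperone-mediated autophagy, had 515, 576 and 552 CPM in WT and 542, 572 and 569.5 CPM in CCR1-KO livers (log2 ratio 0.04 ± 0.12, adjusted p = 0.89), and its CCR1-KO libraries lay within the WT range. Scarb2, the receptor that carries glucocerebrosidase to lysosomes, had 139, 159 and 167 CPM in WT and 199, 208 and 193 CPM in CCR1-KO livers, the 3 CCR1-KO values being over the highest WT value (log2 ratio 0.37 ± 0.12, adjusted p = 0.11). Npc1, the exporter of lysosomal cholesterol, was at 135 ± 30.1 CPM in CCR1-KO against 117 ± 9.10 CPM in WT (log2 ratio 0.20 ± 0.17, adjusted p = 0.51), where CCR1-KO replicate 67 at 169 CPM stood above all other libraries. Mcoln1, the lysosomal calcium channel, was at 41.6 ± 7.68 CPM in CCR1-KO against 36.2 ± 5.90 CPM in WT (log2 ratio 0.20 ± 0.17, adjusted p = 0.52).

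In the proton pump 1 of 5 subunits passed, and the difference between subunits was not tested. Atp6v1a encodes the ATP-splitting A subunit of the cytosolic V1 sector (ENSMUSG00000052459, chr16:44085402-44139705). Its levels were 47.7, 55.1 and 58.1 CPM in WT and 37.2, 32.6 and 37.8 CPM in CCR1-KO livers (log2 ratio -0.58 ± 0.12, adjusted p = 0.037), with no overlap between the groups. Its partner in the V1 ring, Atp6v1b2, had 45.8, 48.7 and 53.0 CPM in WT and 45.9, 38.1 and 34.6 CPM in CCR1-KO livers (log2 ratio -0.31 ± 0.14, adjusted p = 0.21), with CCR1-KO replicate 65 inside the WT range. Atp6v0d1 of the membrane-bound V0 sector, the most abundant of the 5 per gene length, had 58.0, 58.6 and 56.1 CPM in WT and 56.2, 63.5 and 66.1 CPM in CCR1-KO livers (log2 ratio 0.11 ± 0.11, adjusted p = 0.60). Atp6v1h and Atp6v0a1 had log2 ratios of -0.06 and -0.30 with overlapping groups.

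No MiT/TFE factor passed the test. Tfeb was at 4.59, 6.36 and 7.03 CPM in WT and 7.35, 8.11 and 6.71 CPM in CCR1-KO livers (log2 ratio 0.30 ± 0.20, adjusted p = 0.40). Tfe3, the most abundant of the 3 at 2.41 ± 0.225 FPKM in WT, was at 25.2, 19.9 and 20.9 CPM in WT and 20.8, 26.7 and 28.1 CPM in CCR1-KO livers (log2 ratio 0.19 ± 0.16, adjusted p = 0.49). Mitf was the scarcest, at 3.77 ± 0.750 CPM in CCR1-KO against 3.47 ± 0.292 CPM in WT (log2 ratio 0.12 ± 0.22, adjusted p = 0.79). All 3 had overlapping groups, and their SE of 0.16 to 0.22 on the log2 scale leaves room for moderate differences in either direction. These factors are controlled by phosphorylation and location in the cell, which RNA levels do not show.

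No autophagy gene passed either, and 4 of the 5 had log2 ratios above 0 with TMM scaling (Gabarapl1 and Becn1 below 0 with no scaling factors). Gabarapl1, an ATG8-family protein of the autophagosome membrane, was the most abundant per gene length at 234 ± 19.5 FPKM in WT, and had 440.3, 493 and 453 CPM in WT and 458, 506 and 450.5 CPM in CCR1-KO livers (log2 ratio 0.03 ± 0.12, adjusted p = 0.91). Map1lc3b, the family member LC3B used to mark autophagosomes, had 111, 134 and 118 CPM in WT and 135, 192 and 143 CPM in CCR1-KO livers, all CCR1-KO libraries being above all WT libraries (log2 ratio 0.38 ± 0.16, adjusted p = 0.21). Ulk1, the kinase that starts autophagy, had 77.4, 56.8 and 64.4 CPM in WT and 73.4, 141 and 82.4 CPM in CCR1-KO livers (log2 ratio 0.58 ± 0.25, adjusted p = 0.21), with CCR1-KO replicate 66 far above the other 5 libraries. Sqstm1, the cargo receptor p62, and Becn1, a subunit of the lipid kinase that builds autophagosomes, had log2 ratios of -0.04 ± 0.14 and 0.14 ± 0.11.

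A ratio of genes within a library does not move with library-wide scaling, and shows unequal change without saying which side changed. The summed FPKM of the 17 hydrolases over that of the 5 membrane proteins was 2.63, 2.67 and 2.56 in WT and 2.39, 2.07 and 1.75 in CCR1-KO livers. Against the 5 proton pump subunits the hydrolase ratio was 15.0, 15.2 and 14.7 in WT and 13.01, 10.7 and 9.97 in CCR1-KO, and against the 5 autophagy genes 2.55, 2.36 and 2.33 and 1.92, 1.44 and 1.603. In each case the CCR1-KO ratios were under all WT ratios, at 79.0%, 75.1% and 68.5% of the WT mean, and CCR1-KO replicate 65 was the nearest to WT. Single pairs, picked after their values were seen, had the same order: Lipa over Npc1, the enzyme that frees cholesterol over the exporter that removes it, was 3.67, 3.41 and 3.93 in WT and 2.35, 1.38 and 1.23 in CCR1-KO. Within the pump, Atp6v1a over Atp6v0d1 was 0.244, 0.279 and 0.307 and 0.197, 0.152 and 0.170. The sums rest largely on a few abundant genes. In WT, Ctsd, Ctsz, Ctsb and Ctsl held 215, 197, 122 and 91.6 of the mean 949 FPKM of the hydrolases, and only Ctsd of these was called. Lamp1 held 264 of 362 for the membrane proteins. Gabarapl1 and Sqstm1 held 234 and 125 of 394 for the autophagy genes. The ratios are descriptions with no test.

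**Figure D4:**
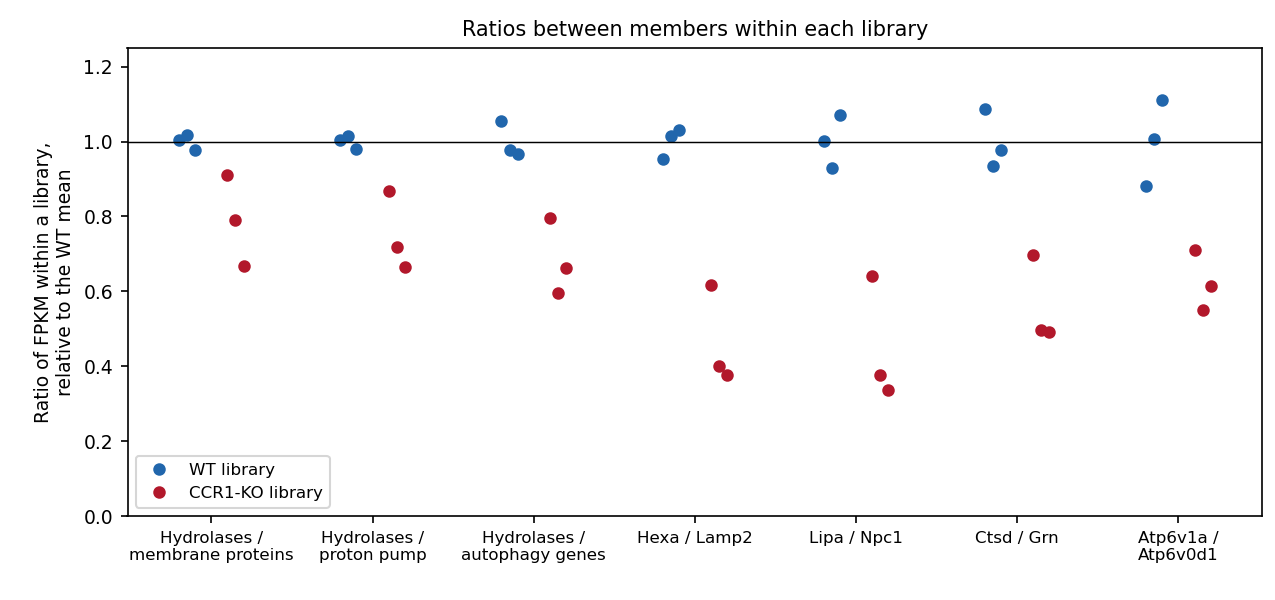
Ratios of FPKM between groups of members or single members within each library (vertical axis, relative to the mean of the 3 WT libraries, from 0). Points are WT (blue) and CCR1-KO (red) libraries in the order of their replicate numbers. For all 7 ratios the CCR1-KO points lie below the WT points. The single pairs were picked after their values were seen. Each sets a called member over an uncalled one with a log2 ratio above 0, so their order follows from that choice.

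Other genes of the pathway came from lists that leave out the 37 members and were written with earlier results of these data known. They are given by role, beside the 3.61% of all genes called lower and the 2.83% called higher. Of 42 other hydrolases tested, 9 fell (21.4%) and 1 rose (median -0.42). Those with the smallest p were the sialate esterase Siae (35.1 ± 3.92 CPM in CCR1-KO against 68.2 ± 3.44 CPM in WT, log2 ratio -0.96 ± 0.12, adjusted p = 0.0098), the acid ceramidase Asah1 (20.7 ± 3.05 CPM in CCR1-KO against 39.5 ± 2.11 CPM in WT, log2 ratio -0.93 ± 0.14, adjusted p = 0.013), the serine carboxypeptidase Scpep1 (log2 ratio -0.90 ± 0.14, adjusted p = 0.015) and the arylsulfatase Arsa (log2 ratio -0.66 ± 0.11, adjusted p = 0.02). The hyaluronidase Hyal1 was the 1 that rose (89.9 ± 20.6 CPM in CCR1-KO against 50.9 ± 4.80 CPM in WT; log2 ratio 0.82 ± 0.18, adjusted p = 0.039). Of 28 other membrane proteins and channels, the tetraspanin Cd63 fell (4.75 ± 1.45 CPM in CCR1-KO against 24.3 ± 10.3 CPM in WT; log2 ratio -2.35 ± 0.34, adjusted p = 0.013), and 27 did not pass (median -0.17). At 3.57% lower, this list was at the share of all genes. Of 14 other proton pump subunits tested, Atp6v0d2, a V0 isoform found in macrophages and osteoclasts, fell (2.21 ± 0.958 CPM in CCR1-KO against 8.19 ± 1.99 CPM in WT; log2 ratio -1.88 ± 0.34, adjusted p = 0.023), and 13 did not pass (median -0.12). Among 12 genes of enzyme sorting, also with 1 call, Gnptab, which makes the mannose phosphate tag that sends hydrolases to lysosomes, fell (10.5 ± 0.344 CPM in CCR1-KO against 15.6 ± 1.23 CPM in WT; log2 ratio -0.57 ± 0.13, adjusted p = 0.039).

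Of 42 core genes of the autophagy machinery tested, 2 rose and 0 fell (median 0.06), beside 2.83% of all genes called higher and 3.61% called lower. With so few calls no direction is given for the list. Atg14, which directs the lipid kinase complex to autophagy, had 14.1, 12.9 and 16.2 CPM in WT and 19.4, 31.8 and 30.0 CPM in CCR1-KO livers (log2 ratio 0.91 ± 0.20, adjusted p = 0.04), and Atg13, a partner of ULK1, 34.3, 36.0 and 37.0 CPM in WT and 45.9, 58.0 and 53.0 CPM in CCR1-KO livers (log2 ratio 0.55 ± 0.12, adjusted p = 0.041). Both had groups that did not overlap. Neither they nor Hyal1 were called with no scaling factors, with no filter or with limma. None of the 13 autophagy receptors and none of the 10 genes linked to MiT/TFE control passed (medians 0.04 and -0.18). Annotation terms that the deposited table pairs with genes were looked at after the member values were seen. In the KEGG lysosome term 19 of 117 tested genes were lower (16.2%) and 2 higher, and without the members 12 of 91 (13.2%) and 2. In the wider GO lysosome term 27 of 352 were lower (7.67%) and 9 higher, and without the members 20 of 326 (6.13%) and 9, against 3.61% lower and 2.83% higher over all genes. In the KEGG autophagy term 5 of 123 were lower (4.07%) and 6 higher, near the shares of all genes.

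Markers of several cell types differed beside the hydrolases, where 3.61% of all genes were called lower and 2.83% higher. Levels below are summed FPKM rescaled by the TMM factors. The 17 hydrolases together stood at 839, 869 and 847 in WT and 672, 575 and 547 in CCR1-KO livers. The 12 markers of macrophages and monocytes summed to 98.9, 99.8 and 88.7 in WT and 106, 44.6 and 53.2 in CCR1-KO (1 lower, Cx3cr1, 0 higher). All 12 had log2 ratios below 0 (median -0.59). Only 2 (16.7%) had every CCR1-KO value under every WT value, near the 17.4% of all genes tested. CCR1-KO replicate 65 had the highest of these sums. It was the highest CCR1-KO library for all 12 markers and for 11 of the 17 hydrolases, against 6410 of all 17729 genes tested. The same held for all 6 Kupffer cell markers, and for 5 of 6 markers each of sinusoidal endothelium and of T and NK cells. Of the 8 hepatocyte markers it was the highest for 0. The 6 markers of resident Kupffer cells summed to 35.3 to 78.3 in WT and 39.3 to 92.8 in CCR1-KO (0 called). The 6 markers of lipid-associated macrophages summed to 73.8 to 117 in WT and 27.9 to 32.7 in CCR1-KO, without overlap (Trem2, Itgax and Spp1 lower, 0 higher). Most of that sum was Spp1, at a mean of 78.4 in WT and 23.1 in CCR1-KO, a gene that is also on the cholangiocyte list. For hepatic stellate cells, 6 of 8 markers were lower (summed 48.8 to 103 in WT and 25.1 to 27.3 in CCR1-KO), and of 6 cholangiocyte markers 1 was, Spp1 again. All 6 cholangiocyte markers had log2 ratios below 0 (median -0.77), and 4 had every CCR1-KO value under every WT value. For hepatocytes 4 of 8 markers were higher (Serpina1c, Tat, Ass1 and Cps1) and 0 lower. Over the 8 markers the median log2 ratio was 0.91, with 6 above 0 and 2 below (Alb and Ttr). Every CCR1-KO value was over every WT value for 5 of the 8, against 15.2% of all genes tested. The reverse order was seen for 0, against 17.4%. Alb, the defining secretory product of these cells, did not pass, at 56004 ± 5854 CPM in CCR1-KO against 62532 ± 6306 CPM in WT (log2 ratio -0.16, adjusted p = 0.63). Markers of sinusoidal endothelium, neutrophils, T and NK cells and B cells had 0 called genes. Their median log2 ratios were -0.27, -0.25, -0.385 and -1.12, with 1 sinusoidal marker above 0 and all others below. Neutrophil markers S100a8, S100a9 and Retnlg had 0 reads in CCR1-KO replicate 67, Cxcr2 had 0 in WT replicate 64 and CCR1-KO replicate 65 and was too low to test, and Cd3d and Cftr had 0 in CCR1-KO replicate 66. The part of the cell types in the hydrolase differences was not tested.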

How the data were processed

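Liver mRNA was sequenced as paired reads from libraries that mark strand with dUTP, per the labels' protocols. The submitters' processing notes list HISAT2 2.2.1, StringTie 2.1.6, cutadapt 1.9, edgeR and DESeq2 without saying what each was used for. The deposited table holds whole-number read counts, not normalized, and FPKM values that the authors computed, per the file headers. The notes name GRCh38, but the identifiers are of mouse; all 37 members are in GENCODE M21 (GRCm38), 31 with identical coordinates, and coordinates are printed as the table gives them. No source used here says how multi-mapping reads were counted. The spans of 17 members overlap another gene.

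Counts were fitted over all genes with edgeR 4.0.16 in R 4.3.3 (glmQLFit, glmQLFTest, TMM, filterByExpr with minimum count 10 and total 15), leaving 17729 genes. FPKM was used to compare levels between genes; over 3308 genes with at least 2000 reads, FPKM followed CPM by 1 factor per library (SD of log2 ratios at most 0.00097). Pairs of replicates differed by more than sampling noise (chi-square per degree of freedom at least 62.8). Alternatives were median-ratio scaling, no scaling factors, DESeq2 1.42.0, no filter, limma 3.58.1 on log2(FPKM + 0.5) and log2(FPKM + 0.1) (FPKM at or above 0.5 in 3 or more libraries), and leaving out each library. Counts were simulated for CCR1-KO against WT (17729 genes), with changes only in genes above a minimum average level. There edgeR recovered 41.0% of 100 genes changed 2-fold and 88.0% of 100 changed 4-fold, with 7 false calls among 136. On the same counts DESeq2 recovered 70% and 96%, with 50 false calls among 216. Members and lists were chosen with earlier results of these data known. All called members were named, then per role the uncalled member of highest FPKM and the one of largest fold change; for the pathway lists, up to 4 genes of smallest p. Ratios, KEGG terms and further members were chosen after their values were seen.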

Additional observations from a re-analysis of the deposited data

How the results depend on the processing

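The 8 called members kept their direction under all 6 alternatives and all 6 fits with 1 library left out. No filter on low counts left 4 members lower, 3 of them hydrolases. Members lower were 12 with DESeq2, 10 of them hydrolases. On simulated counts DESeq2 made 50 false calls among 216, against 7 among 136 for edgeR. They were 11 and 10 with limma at pseudocounts of 0.5 and 0.1, 8 of them hydrolases at each. With 1 library left out, members lower ranged from 0 to 12, hydrolases lower from 0 to 10, other pathway genes lower from 0 to 25 and higher from 0 to 9; the high values are those without CCR1-KO replicate 65. Members higher were 0 throughout. Other pathway genes were 21 lower and 7 higher with DESeq2, 25 and 0 with limma at a pseudocount of 0.5, 20 and 0 at 0.1, 0 higher with no scaling factors and 0 higher with no filter. Ccr1 passed with no scaling factors (log2 ratio -3.05) and with DESeq2 (-2.74). Without scaling factors the median of all genes shifted by -0.30 (limma on FPKM -0.23 and -0.27), and 20.4% of called genes were higher (limma 17.01% and 18.3%) against 43.9%. Relative to that median, hydrolases stood at -0.52 without scaling factors and -0.54 with TMM, and the other members at 0.10 and 0.11. Of the 15 uncalled members above 0, 12 turned negative with no scaling factors, and Scarb2, Map1lc3b and Ulk1 stayed above 0 there and with limma. With no scaling factors the values were Ctsh -0.0717, Gaa -0.20, Grn -0.14, Lamp2 -0.27, Npc1 -0.12, Mcoln1 -0.11, Atp6v0d1 -0.21, Tfeb -0.0028, Tfe3 -0.12, Mitf -0.20, Gabarapl1 -0.27 and Becn1 -0.17. With limma at a pseudocount of 0.5 the values were Ctsh -0.0809, Gaa -0.20, Grn -0.14, Lamp2 -0.27, Npc1 -0.12, Mcoln1 -0.10, Atp6v0d1 -0.20, Tfe3 -0.10, Mitf -0.10, Gabarapl1 -0.28 and Becn1 -0.16. At 0.1 the values were Ctsh -0.0818, Gaa -0.20, Grn -0.14, Lamp2 -0.27, Npc1 -0.13, Mcoln1 -0.11, Atp6v0d1 -0.21, Tfe3 -0.12, Mitf -0.17, Gabarapl1 -0.28 and Becn1 -0.17. With 1 library left out, Lamp2 from -0.0050 to 0.0728, Npc1 from -0.0021 to 0.30, Atp6v1h from -0.20 to 0.0545, Mitf from -0.0468 to 0.24, Sqstm1 from -0.13 to 0.0459 and Gabarapl1 from -0.0254 to 0.0770 crossed 0. No paired analysis was possible because the groups share no replicate numbers. Depth bears mainly on Ctsk, with 36 to 337 reads a library, and on Ccr1. The other members had at least 201 reads in each library.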
